A study of Mus musculus with 16 samples.

Results

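The step from Thy1+ to c-Kit+ spermatogonia was followed in mice that lack Scml2, through the places where chromatin was open at each stage. The cKit_KO group held c-Kit+ spermatogonia and the Thy1_KO group held Thy1+ spermatogonia, both from testes of Scml2-KO mice of the C57BL/6 strain at postnatal day 7, with 2 libraries each. The wild-type groups of the same strain and age, cKit_WT and Thy1_WT, also with 2 libraries each, were used to ask whether a place that separated the stages in the knockout did so in other libraries, and in 1 test of whether the step differed between the genotypes. Open chromatin was measured by ATAC-seq, in which the Tn5 transposase inserts sequencing adapters into accessible DNA, from about 500000 cells per reaction. Each library had its own list of peaks, the stretches where inserted reads passed the threshold of the peak caller. Peaks of the 4 Scml2-KO lists that overlapped were merged, which gave 138953 regions, beside 367750 regions for the 16 libraries of the whole series. A region was called separated by stage when both libraries of one stage had a peak in it and neither library of the other did. With 2 libraries against 2 no two-sided exact p below 0.333 can be reached, so separated regions were counted without a test. The labels do not say that the libraries came from separate animals, nor how the Scml2 deletion was made.

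Spermatogonia are the mitotic germ cells of the testis. Those that carry the surface protein THY1 include the stem and progenitor cells, which depend on GDNF signalling, whereas cells that carry the receptor KIT have answered to retinoic acid and are committed to differentiate towards meiosis. SCML2 is a relative of the Polycomb proteins made in germ cells, and mouse work has shown it to restrain the somatic gene program during spermatogenesis and to act on the sex chromosomes. A peak in a mixed cell fraction does not tell apart more cells with an open site from a more open site per cell.

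The promoters of 4 genes are shown first, because each separated the stages the same way in the Scml2-KO and the wild-type libraries once the lists had been brought to the same length, and because RefSeq sequences were at hand for them. Sdc4 encodes syndecan-4, a heparan sulfate proteoglycan of the cell surface that is enriched in mouse spermatogonial stem cells. Slc10a6 encodes a transporter of sulfated steroids. Both were in the Thy1_KO set. Ppp1r3a, which encodes a glycogen-targeting subunit of protein phosphatase 1, and Nrg3, which encodes a neuregulin ligand of the ERBB4 receptor, were in the cKit_KO set. Each line gives the 250 bases before the transcription start, 5′ to 3′ on the gene's strand, from RefSeq on GRCm38.p6, the build also known as mm10, with matches to the searched motifs in capitals.
Sdc4: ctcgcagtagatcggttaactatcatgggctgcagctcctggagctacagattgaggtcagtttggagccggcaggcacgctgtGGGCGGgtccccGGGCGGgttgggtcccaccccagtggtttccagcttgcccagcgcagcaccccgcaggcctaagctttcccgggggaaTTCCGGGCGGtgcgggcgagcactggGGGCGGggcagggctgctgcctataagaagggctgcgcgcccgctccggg
Slc10a6: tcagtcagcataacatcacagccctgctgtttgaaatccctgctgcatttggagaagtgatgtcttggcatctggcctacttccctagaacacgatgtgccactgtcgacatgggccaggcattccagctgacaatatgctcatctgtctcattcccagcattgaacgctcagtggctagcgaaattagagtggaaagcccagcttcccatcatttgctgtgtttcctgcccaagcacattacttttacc
Ppp1r3a: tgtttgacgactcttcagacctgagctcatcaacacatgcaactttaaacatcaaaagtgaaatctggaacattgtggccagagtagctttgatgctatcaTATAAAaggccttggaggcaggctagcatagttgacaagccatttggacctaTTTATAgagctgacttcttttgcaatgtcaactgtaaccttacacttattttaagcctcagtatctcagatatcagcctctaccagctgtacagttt
Nrg3: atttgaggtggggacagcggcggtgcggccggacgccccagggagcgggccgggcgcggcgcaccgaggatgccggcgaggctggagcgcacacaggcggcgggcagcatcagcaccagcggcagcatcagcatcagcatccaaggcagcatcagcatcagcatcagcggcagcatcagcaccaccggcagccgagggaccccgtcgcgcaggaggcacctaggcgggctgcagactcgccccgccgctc

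The Sdc4 window is chr2:164443189-164443438 on the minus strand, and it held 4 matches to GGGCGG, a box bound by SP and KLF factors, and 1 to CCGGAA, an ETS core, which overlaps the third of those boxes. The Slc10a6 window is chr5:103629404-103629653 on the minus strand, and no searched motif was in it. The Ppp1r3a window, chr6:14755275-14755524 on the minus strand, held 2 matches to the TATA box TATAAA, 1 on each strand. The Nrg3 window, chr14:39473089-39473338 on the minus strand, held no searched motif and had the highest GC content of the 4, 72.4%, beside 68% for Sdc4, 49.2% for Slc10a6 and 40.4% for Ppp1r3a. Searched on both strands over the same 250 bases of all 32817 promoters, GGGCGG was in 32.7%, CCAAT in 33.8%, CCGGAA in 12%, TGACGT in 6.46%, TATAAA in 12.4% and AGATAA in 9.99%. A match is a description of the letters only.

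The peaks lay on these windows. At Sdc4, cKit_KO replicate 1 had a peak of 441 bp with its summit 81 bp before the start and replicate 2 had none, against peaks of 796 and 682 bp in Thy1_KO with summits 91 and 41 bp before the start. At Slc10a6 the single cKit_KO peak was 502 bp long, against 734 and 441 bp in Thy1_KO. At Ppp1r3a the peaks were 720 and 401 bp long in cKit_KO, against 376 and 194 bp in Thy1_KO. The summits there were 89 and 101 bp before the start in cKit_KO and 130 and 82 bp after it in Thy1_KO. At Nrg3 they were 2924 and 466 bp long in cKit_KO, against 1839 and 1301 bp in Thy1_KO. All of these peaks reached into the printed bases.

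The length of the lists came before any difference between the stages. The lists held 91480 and 17813 peaks in cKit_KO, against 110680 and 52113 in Thy1_KO. Replicate 1 had the longer list at both stages, and the range within a stage was wider than the distance between stages. Per the authors' annotation, promoters took 20.9% and 63.7% of the peaks in cKit_KO, against 17.7% and 32.6% in Thy1_KO, so the shortest list was the one made mostly of promoters. Peaks on the X chromosome were 2.29% and 2.20% of the lists in cKit_KO, against 2.24% and 2.62% in Thy1_KO. The fold enrichment of a peak is its pileup plus 1 over the background of its list plus 1, and that background was 0.877 and 0.907 reads in cKit_KO, against 0.963 and 0.258 in Thy1_KO, where replicate 2 stood apart. Its part in the results was not tested. Separated regions and genes, and the shares of gene lists with a peak, were therefore counted with the lists as deposited and again with each list cut to its 17813 peaks of highest −log10 q, the length of the shortest list. The lowest fold enrichment kept by that limit was 9.06 and 3.67 in cKit_KO, against 10.7 and 6.36 in Thy1_KO, and the next fold below it was 8.52 in cKit_KO replicate 1, 10.2 in Thy1_KO replicate 1 and 5.56 in Thy1_KO replicate 2.

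**Figure D1:**
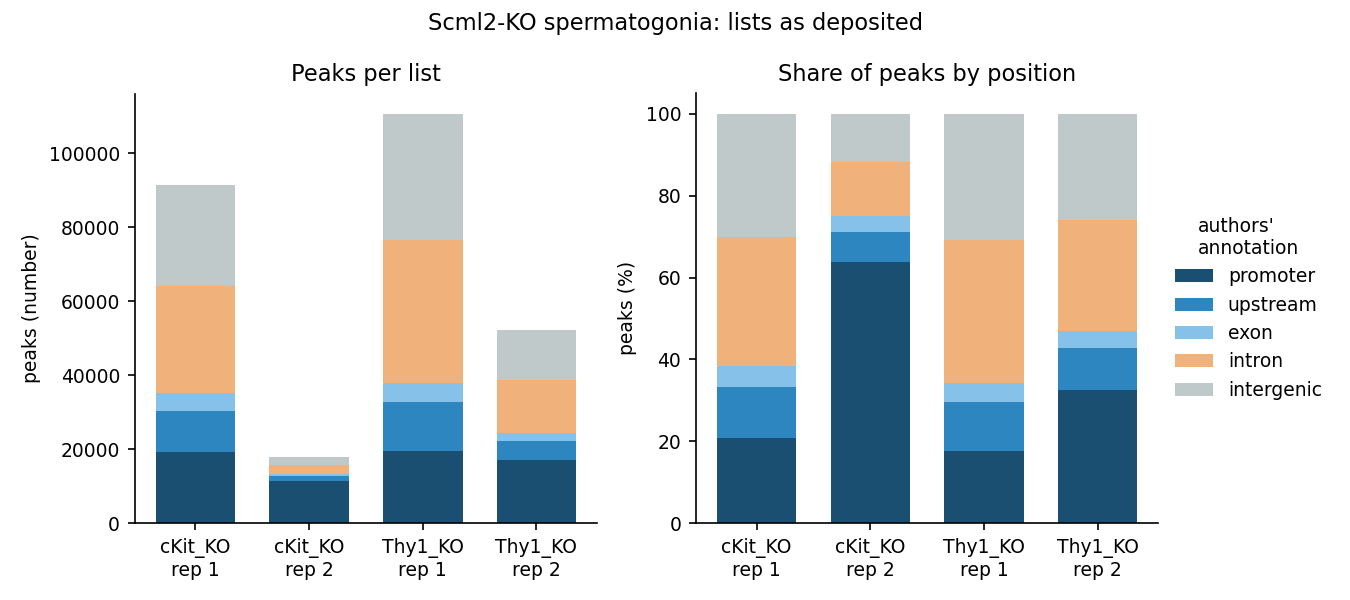
Number of peaks (left) and share of peaks in percent (right) in each of the 4 Scml2-KO lists as deposited, coloured by the position the authors gave each peak. The cKit_KO replicate 2 list, with 17813 peaks, is the shortest and is the only one of the 4 in which promoters, at 63.7%, are the majority.

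Replicates of a stage were not closer to each other than to the other stage with the lists as deposited. The Jaccard index, the number of merged regions with a peak in both of a pair of libraries over those with a peak in either, was 0.171 between the cKit_KO replicates and 0.362 between the Thy1_KO replicates, and 0.139 to 0.446 between libraries of different stages. With lists of equal length it was 0.508 and 0.617 within the stages and 0.505 to 0.539 between them. The Thy1_KO replicates were then closer to each other than any pair across stages, and the cKit_KO replicates were not.

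With the lists as deposited, 139 regions were open in both cKit_KO libraries and neither Thy1_KO library, 0.1% of all merged regions, and 5556 were open in both Thy1_KO libraries and neither cKit_KO library, 4%. With lists of equal length the counts were 653 of 28830 regions for cKit_KO, 2.27%, and 1479 for Thy1_KO, 5.13%. A further 13972 regions as deposited and 9713 at equal length were open in all 4 libraries. More regions were on the Thy1_KO side under both listings, and the ratio between the sides depended on the listing. Only 5 cKit_KO and 47 Thy1_KO regions of the equal-length lists were also separated as deposited. As deposited, the cKit_KO count was 788 without cKit_KO replicate 1, 25595 without cKit_KO replicate 2 and 992 without Thy1_KO replicate 1. The Thy1_KO count was 26934 without cKit_KO replicate 1, 11440 without Thy1_KO replicate 1 and 47610 without Thy1_KO replicate 2. Without cKit_KO replicate 2 the 25595 cKit_KO regions outnumbered 5622 Thy1_KO regions, so the direction as deposited rests on that library. At equal length, leaving out cKit_KO replicate 1, cKit_KO replicate 2, Thy1_KO replicate 1 and Thy1_KO replicate 2 gave 3317, 4605, 1295 and 996 cKit_KO regions and 2662, 2454, 4073 and 4068 Thy1_KO regions, so the cKit_KO side was then the larger without either cKit_KO library.

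The separated regions lay mostly away from promoters. Within 1000 bp of a transcription start site (TSS) lay 12.9% of the cKit_KO regions and 8.06% of the Thy1_KO regions as deposited, beside 14.8% of all merged regions and 69.9% of those open in all 4 libraries. At equal length the shares were 13.5% for cKit_KO and 20.4% for Thy1_KO, beside 41.4% of all regions and 79.5% of those open in all 4. Introns held 38.6% of the cKit_KO and 33.7% of the Thy1_KO regions at equal length, and intergenic sequence 26.3% and 29.3%. The X chromosome held 1.23% of the cKit_KO and 1.96% of the Thy1_KO regions, beside 2.21% of all regions.

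The highest Thy1_KO regions away from a TSS had strong peaks in both replicates. Named here are those with the highest lower fold enrichment of the 2 libraries. As deposited 3 regions were tied at the top with a lower fold of 8.74, in an intron of Camk2d, near Elovl5 and in an intron of Ston2. The first is chr3:126639038-126639759, and Camk2d encodes a calcium/calmodulin-dependent kinase. That region had no peak in cKit_KO and fold enrichments of 14.3 and 8.74 in Thy1_KO. In the wild type it had 5.34 and 4.63 in cKit_WT against 11.5 and 9.27 in Thy1_WT, so it was open at both stages there. The second, chr9:77838686-77838964, 78540 bp from the TSS of Elovl5, a fatty acid elongase gene, had none in cKit_KO and 10.2 and 8.74 in Thy1_KO. It had no peak in cKit_WT either, and 10.3 and 9.82 in Thy1_WT. The Ston2 intron had none in cKit_KO and 10.7 and 8.74 in Thy1_KO, and was open in all 4 wild-type libraries, with 6.53 and 5.14 in cKit_WT against 12.1 and 8.73 in Thy1_WT. An intron of Lphn3, an adhesion receptor gene, was the other one of the 6 named that separated the stages in wild type too, with 8.15 and 7.95 in Thy1_KO and 7.84 and 5.45 in Thy1_WT. At equal length the highest was chr4:54355757-54356618, 530142 bp from Zfp462, with 8.52 and no peak in cKit_KO against 18.3 and 15.1 in Thy1_KO.

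The highest cKit_KO regions away from a TSS, like the Thy1_KO ones, lay mostly in introns and intergenic sequence. As deposited, the leading ones were an intergenic region of the Y chromosome nearest to Zfy1, with 6.93 and 13.1 in cKit_KO, an intron of Smo, with 6.39 and 10.5, and a region by Dux, with 6.39 and 8.92, and none had a peak in Thy1_KO. At equal length they were led by regions by Pisd, 2810429I04Rik and E030030I06Rik, by C130026I21Rik and by Pisd-ps2, all of which had lower peaks in Thy1_KO as deposited. At the C130026I21Rik region, chr1:85277702-85278019, the folds were 10.7 and 11.5 in cKit_KO against 4.08 and 3.18 in Thy1_KO. Zfy1, Dux, Pisd-ps2 and the Sp110 and C130026I21Rik cluster lie in or near sequence with near-identical copies, so which copy the single 75-bp reads came from is uncertain. None of the 12 cKit_KO regions chosen by the rule under either listing was separated the same way in wild type, nor was any of the 6 Thy1_KO regions chosen at equal length. Over all separated cKit_KO regions the share with the same pattern in wild type was 7.19% as deposited and 23.3% at equal length. As deposited, 5 of the cKit_KO regions were assigned to Sp110, out of its 51 merged regions, and 4 to C130026I21Rik, out of 61. The share over all merged regions was 0.1%. None of these had the same pattern in wild type.

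Wild-type libraries, which had no part in choosing the regions, had peaks in the separated regions with the same stage preference at equal length. Regions open only in cKit_KO had a peak in 66.9% and 53.0% of cases in cKit_WT, against 13.5% and 25.7% in Thy1_WT. Regions open only in Thy1_KO had one in 26.9% and 27.2% in cKit_WT, against 72.3% and 53.5% in Thy1_WT. Peritubular and smooth muscle markers, whose shares are given further on, differed between the wild-type stages too. The groups did not overlap in either set, and over all 28830 regions the shares were 55.2% and 52.9% in cKit_WT against 57.0% and 55.4% in Thy1_WT. The same full pattern, both of one stage and neither of the other, was found in wild type for 152 of the 653 cKit_KO regions and 256 of the 1479 Thy1_KO regions, and the opposite one for 8 in each set. Of those among the 28830 Scml2-KO regions that were separated in wild type, these were 15.3% of the cKit_WT and 22.5% of the Thy1_WT ones. Places with a peak only in wild type are not in these shares. The mean wild-type share for the cKit_KO set was 40.4 percentage points higher in cKit_WT than in Thy1_WT. It was 8.46 points when the set was chosen without cKit_KO replicate 1, 30.6 without cKit_KO replicate 2, 23.8 without Thy1_KO replicate 1 and 29.0 without Thy1_KO replicate 2. For the Thy1_KO set the difference was −35.9 points, and −19.8 to −31.4 points when 1 library was left out of the choice, with the smallest size without Thy1_KO replicate 1.

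As deposited, the wild-type shares have to be read beside those over all regions, because the wild-type lists differed in length. The 5556 Thy1_KO regions had a peak in 29.8% and 4.86% of cases in cKit_WT, against 90.8% and 57.5% in Thy1_WT, and 1883 had the full pattern in wild type, with 1 opposite. The 139 cKit_KO regions had a peak in 61.9% and 42.4% in cKit_WT, against 50.4% and 45.3% in Thy1_WT, where the groups overlapped, and 10 had the full pattern with 7 opposite. The lists held 83378 and 32356 peaks in cKit_WT against 135892 and 75038 in Thy1_WT, and over all merged regions the shares were 48.3% and 20.4% in cKit_WT against 69.4% and 44.3% in Thy1_WT. The cKit_KO set was thus above the share over all regions in both cKit_WT libraries, and below it in Thy1_WT replicate 1 and close to it in Thy1_WT replicate 2. Of the regions merged from the Scml2-KO lists, 458 were open in both cKit_WT and neither Thy1_WT library, and 12976 had the opposite pattern. Places with a peak only in wild type are not in these counts.

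**Figure D2:**
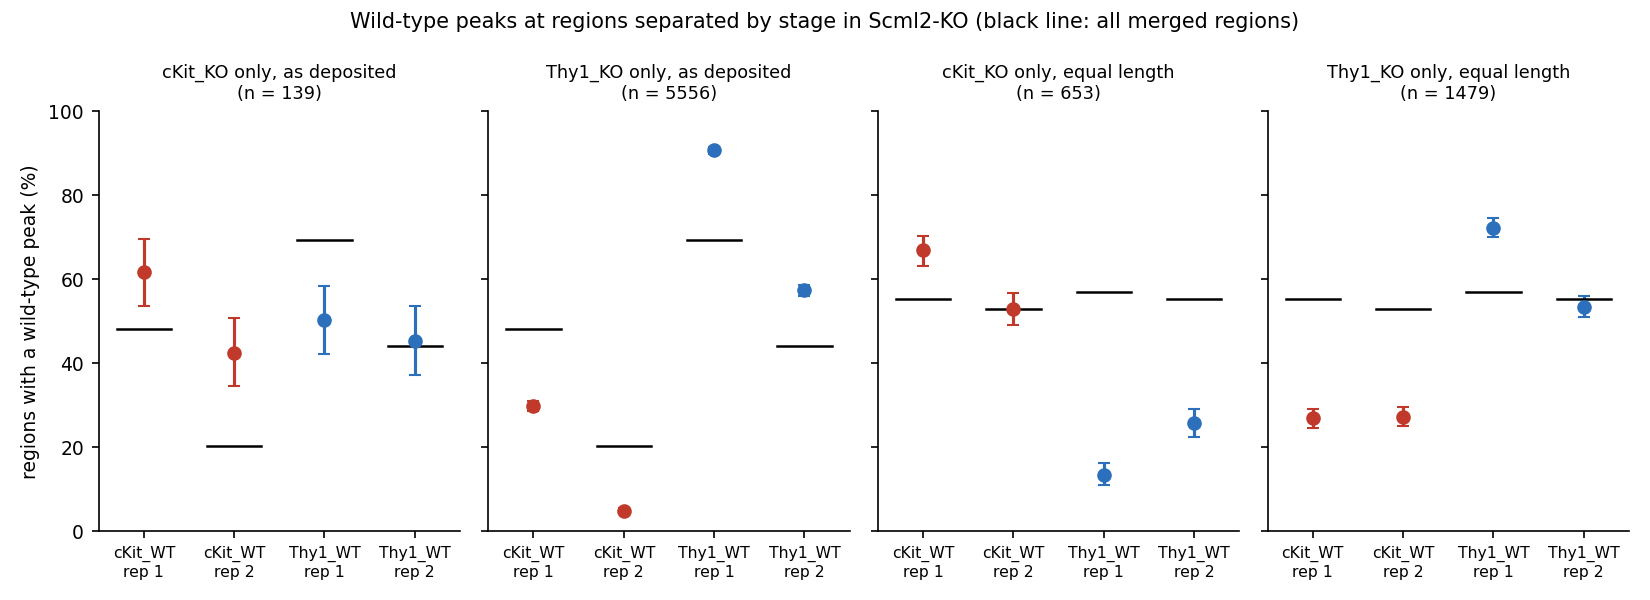
Percent of regions separated by stage in Scml2-KO that had a peak in each of the 4 wild-type libraries, with 95% Wilson intervals that cover counting error only; red points are cKit_WT, blue points Thy1_WT, and black lines give the same share over all merged regions. In the 653 cKit_KO regions of equal length the cKit_WT points, 66.9% and 53.0%, lie above the Thy1_WT points, 13.5% and 25.7%, and in both Thy1_KO sets the Thy1_WT points lie above the cKit_WT points.

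Promoters were read next, a gene being called open if a peak reached within 1000 bp of one of its start sites. Of 21179 genes, 12 were open in both cKit_KO libraries and neither Thy1_KO library as deposited, 0.0567%, and 177 in both Thy1_KO libraries and neither cKit_KO library, 0.836%. With lists of equal length the counts were 77 genes, 0.364%, and 294 genes, 1.39%. No cKit_KO gene was on both listings, and on the Thy1_KO side 3 were, namely Mrgbp, Mir449b and Ifitm1. As deposited, the cKit_KO count was 21 without cKit_KO replicate 1, 451 without cKit_KO replicate 2 and 97 without Thy1_KO replicate 1, and the Thy1_KO count was 3121 without cKit_KO replicate 1 and 747 without Thy1_KO replicate 2. Without cKit_KO replicate 2, the 451 cKit_KO genes outnumbered 187 Thy1_KO genes. At equal length, the counts without cKit_KO replicate 1, cKit_KO replicate 2, Thy1_KO replicate 1 and Thy1_KO replicate 2 were 550, 249, 315 and 258 for cKit_KO and 651, 913, 793 and 487 for Thy1_KO, and Thy1_KO was then the larger side in each case.

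The sorting markers were checked first. Thy1, on chromosome 9 with its start at 44043384, encodes the antigen used to select the stem and progenitor fraction. It had no promoter peak in either cKit_KO library, and fold enrichments of 5.60 and 3.18 in Thy1_KO. The wild type had the same pattern, with no peak in cKit_WT and 8.44 and 5.45 in Thy1_WT. This held only as deposited, where the Thy1_KO lists are the longer ones at each replicate number, since the Thy1 promoter was in none of the 4 equal-length Scml2-KO lists. The value of 3.18 is the lowest that the Thy1_KO replicate 2 list holds. Kit, the receptor that marks the differentiating fraction, was open in all 4 libraries, with 13.9 and 6.29 in cKit_KO against 12.7 and 5.56 in Thy1_KO, and the groups overlapped. The peak of Thy1_KO replicate 2 had its summit 732 bp after the start and was outside the equal-length list, whereas the summits of the other 3 lay 45, 31 and 42 bp before the start. Scml2 itself, on the X chromosome, had 6.93 and no peak in cKit_KO, against 11.7 and 7.15 in Thy1_KO. Since the deleted part of the gene is not given in the labels, an open Scml2 promoter is no check of the knockout.

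The 12 cKit_KO promoters as deposited were all weak. Ctcfl, which encodes the germline paralogue of the insulator protein CTCF, had 4.79 and 5.24 in cKit_KO and no peak in Thy1_KO, and in wild type only 1 Thy1_WT library had a peak, of 3.27. Hivep3 and Trpv4, a zinc finger gene and a cation channel gene, had the same values as Ctcfl in cKit_KO. Their wild-type peaks were in both stages, Trpv4 reaching 4.75 in 1 cKit_WT library and 4.22 and 7.63 in Thy1_WT. Fgf8, a secreted growth factor gene, had 4.26 and 3.67 in cKit_KO, of which 3.67 is the lowest fold in that list. Lin28a encodes an RNA-binding protein that blocks the maturation of let-7 microRNAs and is found in undifferentiated mouse spermatogonia. It had 3.73 and 4.20 in cKit_KO and no peak in the 6 other libraries from spermatogonia of both genotypes. Its 2 cKit_KO peaks did not overlap, since they lay at chr4:134018652-134018823 and at chr4:134018385-134018557. The others were Rapsn, Add2, H2afy3, Prss8, Pou2f3, Tmem82 and Caln1, and over all 12 the lower fold of the 2 libraries was between 3.67 and 4.79. None of the 12 was open in both cKit_WT and neither Thy1_WT library.

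The 177 Thy1_KO promoters as deposited were stronger at the top of the list and 51 of them had the same full pattern in wild type, with none opposite, beside 433 of all 21179 genes with that wild-type pattern. Mrgbp, which encodes a subunit of the NuA4 histone acetyltransferase complex, led with no peak in the promoter window in cKit_KO and 22.4 and 11.9 in Thy1_KO. In wild type the window had a peak of 23.5 in 1 Thy1_WT library and none in the other 3. The Thy1_KO peaks only reached into the end of the window, with summits 1311 and 1344 bp after the start. Peaks just past the window were not looked for in the other libraries, so a lack of open chromatin there is not shown. Klf1, an erythroid transcription factor gene, had no peak in cKit_KO and 9.68 and 10.3 in Thy1_KO, and in wild type 7.71 in 1 cKit_WT library against 15.7 and 10.9 in Thy1_WT. Its summits were likewise more than 1000 bp after the start. Timp2, a metalloproteinase inhibitor gene, had no peak in cKit_KO and 6.62 and 7.15 in Thy1_KO, and was open in all 4 wild-type libraries. Cacnb1, Ggt5, Ifitm1, Cxcl16, Nptx1, Gm11762, 2900097C17Rik and Fam109b completed the 12 highest, with a lower fold in Thy1_KO between 6.11 and 6.36.

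Among promoters separated the same way in both genotypes, the ones with the highest folds were Mir449b, Fam109b, Tha1, 5730416F02Rik, Gm16291, Mir3110, Mst1 and Tnfsf15. Tha1, which encodes threonine aldolase, had no peak in cKit_KO and 5.09 and 7.15 in Thy1_KO, and none in cKit_WT and 9.65 and 6.00 in Thy1_WT. Fam109b, which encodes an endosomal trafficking protein, had none in cKit_KO and 6.11 and 6.36 in Thy1_KO, and none in cKit_WT and 7.24 and 6.54 in Thy1_WT. Mst1, which encodes a secreted ligand of the RON receptor, had none in cKit_KO and 9.17 and 4.77 in Thy1_KO, with summits 1162 and 1042 bp before the start. Its wild-type peaks lay at the same distance, with none in cKit_WT and 10.3 and 5.45 in Thy1_WT. Tnfsf15, a TNF family ligand gene, had none in cKit_KO and 5.60 and 4.77 in Thy1_KO.

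At Mir449b, the remaining one of the 12 highest, the separation rested on the extent of the peaks. The miR-449 family shares its seed, bases 2 to 8 in capitals below, with the miR-34 family, and both are known in mice for their joint need in spermatogenesis and multiciliated cells. RefSeq gave these mature sequences on GRCm38.p6.
mmu-miR-449a-5p: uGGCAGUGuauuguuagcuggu
mmu-miR-449c-5p: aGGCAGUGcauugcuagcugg
mmu-miR-34a-5p: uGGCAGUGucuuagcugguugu
mmu-miR-34b-5p: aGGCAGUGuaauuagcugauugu

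The Mir449b window had no peak in cKit_KO and 14.8 and 8.74 in Thy1_KO, and the same pattern in wild type, with none in cKit_WT and 19.3 and 13.6 in Thy1_WT. Those Thy1_KO peaks, chr13:113035660-113036483 and chr13:113035960-113036421, had their summits 93 and 166 bp after the start of Mir449c. At Mir449c, the neighbouring member, cKit_KO also had peaks, of 10.7 and 5.24, and these ended at 113036298 and 113036195, short of the Mir449b window. The locus was thus open at both stages, and the folds at Mir449c overlapped between them. Mir34a had no peak in the Scml2-KO libraries, and Mir34c had 4.26 and none in cKit_KO against 7.13 and 6.36 in Thy1_KO.

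With lists of equal length, many separated genes still had a deposited peak in the other stage. All 77 cKit_KO genes had a deposited peak in Thy1_KO replicate 1 that the limit left out. For 22 of them it was tied at the limit or 1 pileup step under it. In Thy1_KO replicate 2, 69 also had such a peak, for 33 of them tied at the limit or 1 step under, while 8 had none. Of the 294 Thy1_KO genes, 291 had a deposited peak in cKit_KO replicate 1, for 101 of them tied at the limit or 1 step under. None had one in cKit_KO replicate 2, whose list was used whole. For the Thy1_KO genes the lack of a peak in cKit_KO replicate 2 was thus always part of the separation.

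The highest Thy1_KO genes at equal length were Plxnb1, Rpl32, Wisp1, Ptpn11, Arnt2, E030030I06Rik, Epdr1 and Mrgbp. Plxnb1, a semaphorin receptor gene, had 7.99 and no peak in cKit_KO, against 15.8 and 15.9 in Thy1_KO. Ptpn11, which encodes the SHP2 phosphatase that relays signals of KIT and FGF receptors, had 7.46 and none in cKit_KO, against 12.7 in both Thy1_KO libraries. In wild type both were open in all 4 libraries, Ptpn11 with 12.5 and 6.17 in cKit_WT against 15.7 and 11.5 in Thy1_WT. Of the 294 genes, 43 had the same full pattern in wild type and 1 the opposite, beside 345 of all genes with that wild-type pattern. Slc10a6 had 8.52 and none in cKit_KO against 19.9 and 10.3 in Thy1_KO, and 8.31 and 5.65 in cKit_WT against 21.7 and 18.0 in Thy1_WT. Its groups did not overlap in either genotype. Ppm1h, a phosphatase gene, had 7.99 and none in cKit_KO against 16.3 and 11.1 in Thy1_KO, and 8.90 and 5.14 in cKit_WT against 17.5 and 13.1 in Thy1_WT. Cgnl1, a junction protein gene, Cyp4v3, a cytochrome P450 gene, 4833424O15Rik, 8430410A17Rik, Gm19705 and C430049B03Rik were the others of that kind with the highest folds.

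The highest cKit_KO genes at equal length were 2700054A10Rik, Chsy1, Scmh1, 2610307P16Rik, Car8, Ephx2, March4 and Phactr3. Chsy1, a chondroitin synthase gene, had 11.7 and 8.92 in cKit_KO, against 10.2 and 5.56 in Thy1_KO, which is 1 step under the limit in both Thy1_KO libraries. Of the 77 genes, 11 had the same full pattern in wild type and 5 the opposite, beside 71 of all genes with that wild-type pattern. The first group held 2610307P16Rik, Phactr3, 2610017I09Rik, 4933431G14Rik, Ppp1r3a, Nrg3, Ralyl and Emc9. Ppp1r3a, whose TATA boxes are shown above, had 10.1 and 5.77 in cKit_KO against 5.09 and 5.56 in Thy1_KO, and 10.7 and 9.77 in cKit_WT against 5.43 and 7.09 in Thy1_WT. The groups did not overlap in either genotype, although in Scml2-KO the lower cKit_KO value exceeded the higher Thy1_KO value only slightly. Nrg3 had 14.4 and 5.24 in cKit_KO against 10.2 and 5.56 in Thy1_KO, where the deposited folds overlapped. Emc9, which encodes a subunit of a membrane protein insertase, had 9.59 and 4.72 in cKit_KO against 6.62 and 3.97 in Thy1_KO, also with overlap.

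**Figure D3:**
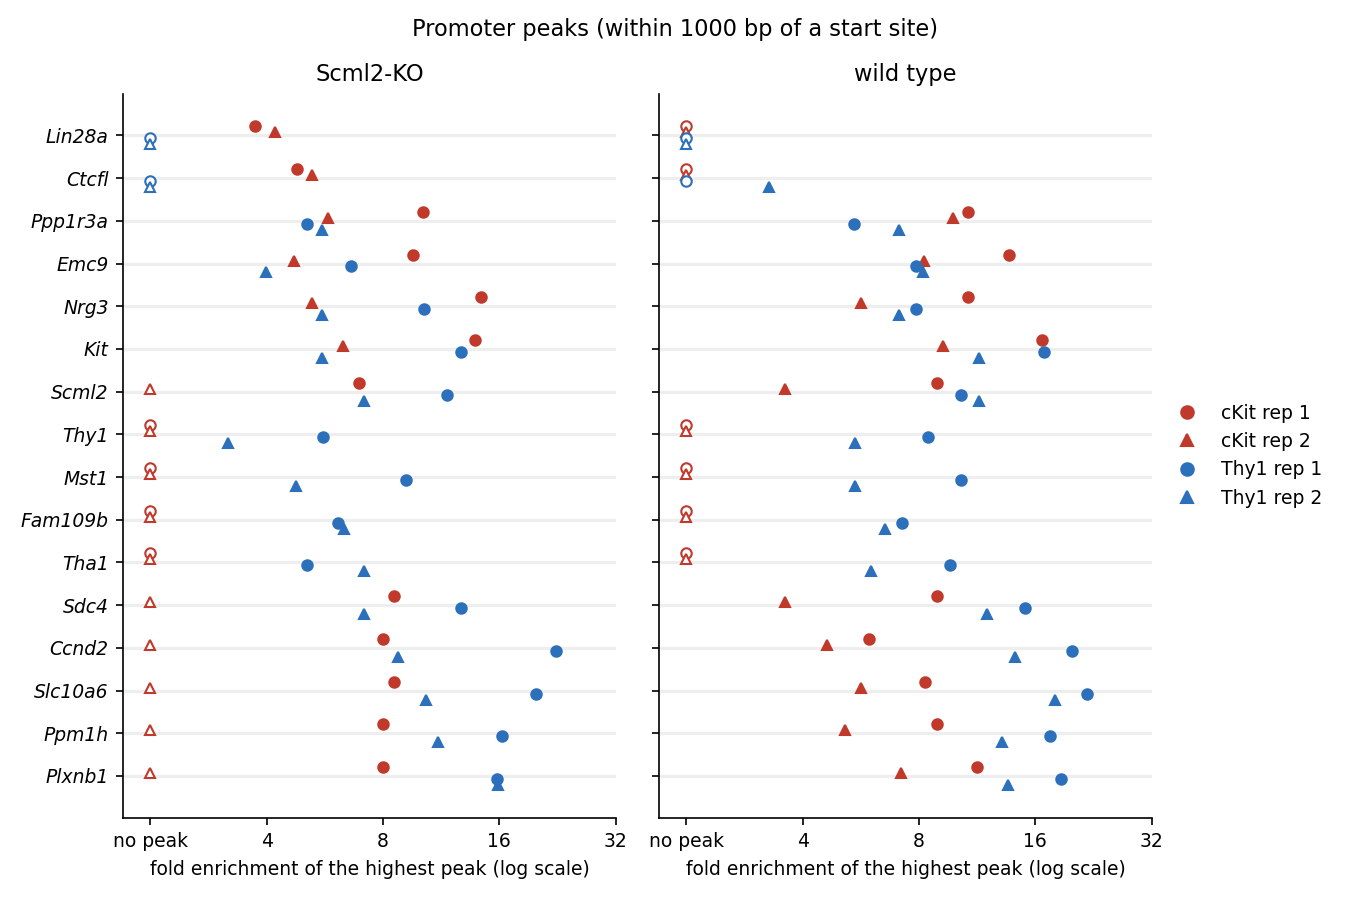
Fold enrichment (log scale) of the highest promoter peak of 16 named genes in each Scml2-KO library (left) and each wild-type library (right); red symbols are cKit, blue Thy1, circles replicate 1, triangles replicate 2, and open symbols at the left edge mark no peak. Thy1, Mst1, Fam109b and Tha1 have peaks only in the Thy1 libraries of both genotypes, while Kit has a peak in all 8.

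Among 425 genes of 18 lists chosen for this tissue, 2 were separated towards cKit_KO as deposited, 0.471% beside 0.0567% of all genes, and 2 towards Thy1_KO, 0.471% beside 0.836%. At equal length 5 were on the cKit_KO side, 1.18% beside 0.364%, and 8 on the Thy1_KO side, 1.88% beside 1.39%. These are counts of few genes. Of the 32 stem and progenitor genes, Lin28a was on the cKit_KO side and Lhx1 and Thy1 on the Thy1_KO side as deposited. Lhx1, a transcription factor gene that answers to GDNF, had no peak in cKit_KO and 4.59 and 3.97 in Thy1_KO. At equal length Sdc4 was on the Thy1_KO side, with 8.52 and no peak in cKit_KO against 12.7 and 7.15 in Thy1_KO, and it had 8.90 and 3.60 in cKit_WT against 15.1 and 12 in Thy1_WT. Other stem cell genes were open in all 4 libraries, among them Etv5, a GDNF target gene, with 28.8 and 17.8 in cKit_KO against 35.2 and 23.8 in Thy1_KO, and Id4, with 20.2 and 6.82 against 23.9 and 10.3.

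Of the 19 differentiating spermatogonia genes, none was on the cKit_KO side under either listing, and Ccnd2 was on the Thy1_KO side at equal length. Ccnd2 encodes cyclin D2, which drives entry into the cell cycle and appears in mouse spermatogonia as they commit to differentiate. It had 7.99 and no peak in cKit_KO against 22.4 and 8.74 in Thy1_KO, and 5.93 and 4.63 in cKit_WT against 19.9 and 14.2 in Thy1_WT. The highest Thy1_KO peaks of Ccnd2 lay 1548 and 1544 bp before the start, whereas the cKit_KO peak lay 32 bp after it. In wild type the highest peaks lay 9 and 8 bp before the start in cKit_WT and 9 and 4 bp before it in Thy1_WT. The folds of Thy1_KO and Thy1_WT given here thus come from different places. The upstream place, chr6:127151499-127153861, was open in all 4 libraries, with 13.3 and 5.77 in cKit_KO, beyond the promoter window, against the same 22.4 and 8.74 in Thy1_KO. Its groups overlapped, and the log2 difference after quantile normalization was −0.23 ± 0.29 (SE), with an adjusted p of 0.976 from limma. Stra8, the retinoic acid target that opens the way to meiosis, had 12.8 and no peak in cKit_KO against 5.60 and none in Thy1_KO, so each stage had 1 library with a peak. Dmrtb1, a transcription factor gene of late spermatogonia, had 7.46 and none in cKit_KO, against none in Thy1_KO.

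In the signalling lists, Aldh1a3 and Rdh11, both genes of retinoid metabolism, were on the Thy1_KO side at equal length, with 6.39 and 8.52 in cKit_KO replicate 1 and no peak in replicate 2. In Thy1_KO Aldh1a3 had 12.7 and 7.15, and Rdh11 had 11.7 and 7.15. Fgf2, a growth factor gene for stem spermatogonia, was also on that side, with 6.93 and none in cKit_KO against 11.2 and 8.74 in Thy1_KO. Gdnf and Ncoa3 were on the cKit_KO side by rank only, Gdnf with 10.7 and 3.67 in cKit_KO against 7.13 and 4.77 in Thy1_KO. Ccnb2, a mitotic cyclin gene, was on the same side although its folds of 9.59 and 5.77 in cKit_KO were matched by 10.2 and 5.56 in Thy1_KO. Of the Polycomb group list, Scmh1 and Sfmbt2 were on the cKit_KO side and Scml2 on the Thy1_KO side, and Hspa1l, a germ cell chaperone gene, was on the Thy1_KO side. No member of the meiotic prophase, DNA methylation, Hox or housekeeping lists was separated under either listing.

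Markers of other testis cells were present at both stages. Of 25 Sertoli cell markers, 84% and 44% had a promoter peak in cKit_KO, against 88% and 76% in Thy1_KO, as deposited, and 40% and 44% against 48% and 48% at equal length. The deposited shares over all genes were 70.6% and 50.7% in cKit_KO against 71.9% and 65.4% in Thy1_KO. The defining Sertoli genes Sox9, with 10.1 and no peak in cKit_KO against 18.9 and 6.36 in Thy1_KO, and Wt1, with 9.06 and 6.29 against 22.9 and 13.5, were among the open ones. Of 15 peritubular and smooth muscle markers, 33.3% and 46.7% were open in cKit_KO against 60% and 33.3% in Thy1_KO at equal length. In wild type these were 26.7% in both cKit_WT libraries against 66.7% in both Thy1_WT libraries, so this list separated the wild-type stages, while the Sertoli shares were 44% and 40% against 48% and 44%. Of 12 endothelial markers, the shares were 16.7% and 33.3% against 8.33% and 25%, and of 11 Leydig cell markers 27.3% and 18.2% against 18.2% in both Thy1_KO libraries. Immune markers were the rarest at equal length, with 9.09% and 0% in cKit_KO and the same in Thy1_KO. As deposited, the shares of these 11 genes were 36.4% and 0% in cKit_KO against 27.3% and 18.2% in Thy1_KO. For 11 T cell and stromal genes shared with Thy1 sorting they were 27.3% and 9.09% against 36.4% and 18.2%. Among the members without a deposited peak in any of the 4 libraries were Ptprc, Cd3e, Cd3d, Cd4 and Lck. Over all genes, 46.5% and 50.7% were open in cKit_KO against 50.0% and 52.1% in Thy1_KO at equal length. At this length the Sertoli shares, from only 25 genes, did not overlap between the stages, and the other somatic shares did or were equal in part. Shares of the KIT and mTOR list and of the spermatid and sperm list did not overlap either. The part of somatic cells in the separated regions and in the wild-type shares was not tested.

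**Figure D4:**
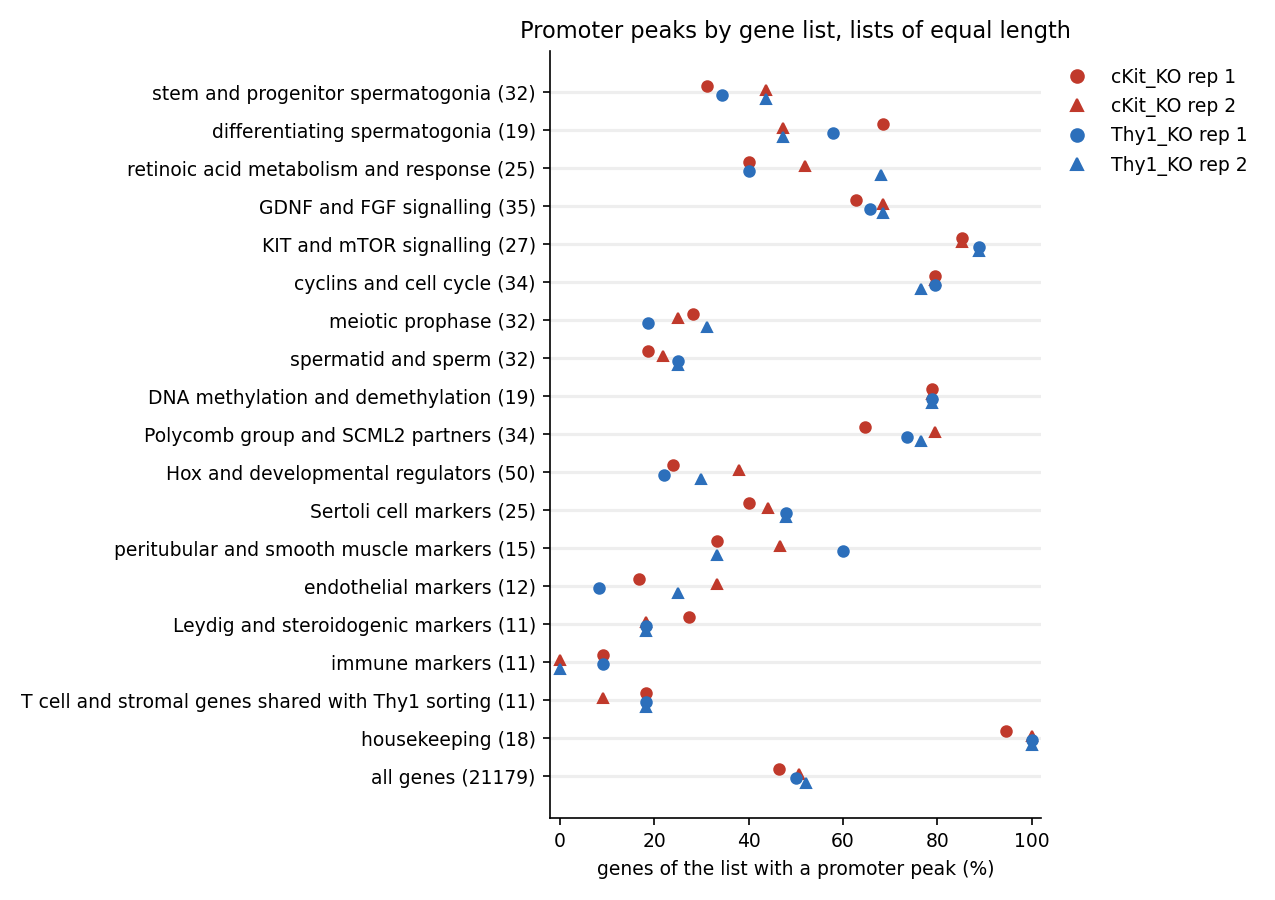
Percent of the genes of each list with a promoter peak in each Scml2-KO library, with each list of peaks cut to 17813; red is cKit_KO, blue Thy1_KO, circles replicate 1 and triangles replicate 2, and the number of genes is in brackets. The stages overlap for most lists, and over all 21179 genes the shares are 46.5% and 50.7% in cKit_KO and 50.0% and 52.1% in Thy1_KO.

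Peak height was compared over the 13972 regions open in all 4 libraries. The median fold enrichment was 13.9 and 6.82 in cKit_KO, against 17.8 and 10.3 in Thy1_KO, and the groups overlapped. After quantile normalization of the log2 fold enrichment, which gives every library the same distribution, limma with Benjamini-Hochberg adjustment called 0 regions higher in cKit_KO and 0 higher in Thy1_KO at 0.05, 0% of those tested. At an unadjusted p under 0.05 there were 469 and 308, and the lowest adjusted p was 0.884. The groups did not overlap in 2203 regions with cKit_KO higher, 15.8%, and in 2190 with Thy1_KO higher, 15.7%, a balance that the normalization itself brings near to even. A random order of 2 against 2 libraries would separate a share of 0.333 of regions over both directions. The 2 shares together were not above it. On the deposited folds the groups did not overlap in 127 regions with cKit_KO higher and 2318 with Thy1_KO higher. The median standard error of a difference was 0.28 on the log2 scale, beside a standard deviation of 0.34 over all differences.

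The regions below an unadjusted p of 0.05 had the same direction in the wild-type libraries more often than the rest. Of the 13238 regions open in all 8 libraries, 445 were higher in cKit_KO at that limit, with a median log2 difference, cKit minus Thy1, of 0.82 in Scml2-KO and 0.56 in wild type, and 89.2% of them were above 0 in wild type, beside 47.2% of all 13238. The 290 higher in Thy1_KO had medians of −0.73 in Scml2-KO and −0.25 in wild type, and 77.6% were below 0 in wild type, beside 52.6% of all. Each genotype was normalized on its own and no library is shared between them. Of the largest differences without overlap, a few are named here, picked after the values were seen. An intron of Nalcn, a sodium leak channel gene, had 6.93 and 5.77 in cKit_KO against 32.1 and 12.7 in Thy1_KO. Its log2 difference was −1.20 ± 0.34 (SE), and −0.69 in wild type. A region upstream of Tnxb, which encodes tenascin-X, had 5.33 and 5.24 in cKit_KO against 22.9 and 12.7 in Thy1_KO, a difference of −1.19 ± 0.32 (SE), and −1.39 in wild type. Some others with Thy1_KO higher differed little in wild type. The promoter region of Fastkd2 and Mdh1b had −1.24 ± 0.33 (SE), and −0.15 in wild type. The promoter region of Ermp1 had −1.13 ± 0.42 (SE), and 0.12 in wild type. The largest with cKit_KO higher, by C130026I21Rik, had 1.76 ± 0.38 (SE), and 0.90 in wild type. None of these passed the test, with an adjusted p of 0.884 from limma for each.

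**Figure D5:**
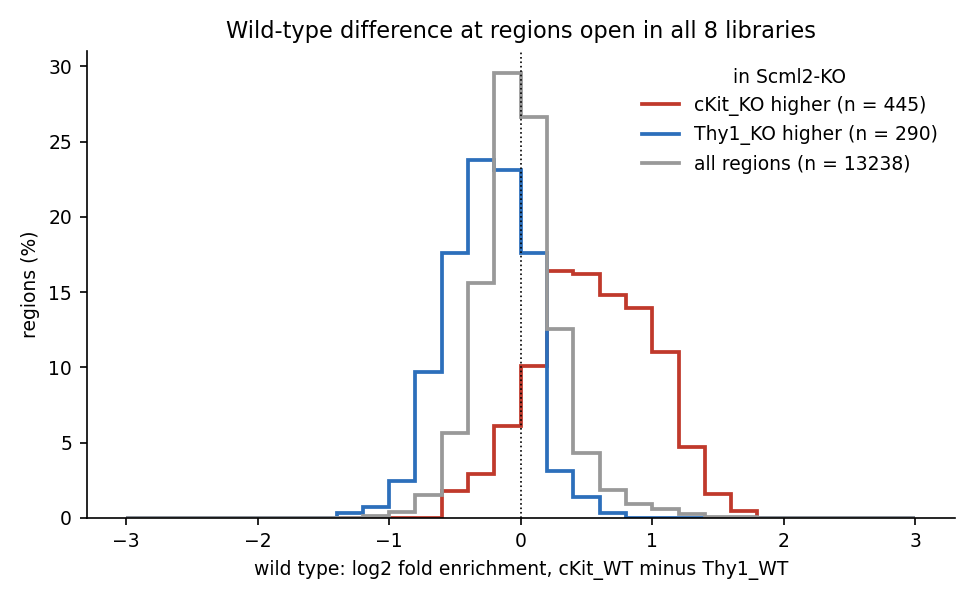
Distribution of the wild-type log2 fold-enrichment difference, cKit_WT minus Thy1_WT, in bins of 0.2, as percent of regions open in all 8 libraries; red marks the 445 regions higher in cKit_KO and blue the 290 higher in Thy1_KO at an unadjusted p under 0.05, and grey all 13238. The red curve lies mostly right of 0, with a median of 0.56, and the blue curve mostly left of it, with a median of −0.25.

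Among listed genes with a promoter region open in all 4 libraries, none passed the adjusted threshold. Kit had a log2 difference of 0.55 ± 0.27 (SE) after normalization, higher in both cKit_KO libraries, with an adjusted p of 0.909 from limma. Its deposited folds overlapped, and the Thy1_KO replicate 2 value came from a separate peak with its summit 732 bp after the start. Dnmt3b, a DNA methyltransferase gene that comes on with differentiation, had 10.1 and 3.67 in cKit_KO against 13.2 and 14.3 in Thy1_KO, a difference of −0.90 ± 0.38 (SE). Rara, the retinoic acid receptor alpha gene, had 7.46 and 5.24 against 17.8 and 11.9, a difference of −0.76 ± 0.28 (SE), and both had an adjusted p of 0.884 from limma. The median over the 13 stem and progenitor genes that were open in all 4 libraries was 0.04 and over the 10 differentiating genes −0.14, beside −0.03 over all 10687 genes of that kind, values taken only from genes with peaks at both stages. Over the 11 Sertoli genes of that kind it was −0.10, and over the 6 peritubular and smooth muscle genes −0.46. The part of such cells in these differences was not tested.

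Whether the step from Thy1+ to c-Kit+ differed between Scml2-KO and wild type was tested as an interaction over the 13238 regions. limma called 0 of them, 0%, with a lowest adjusted p of 1.00. At an unadjusted p under 0.05 the difference cKit minus Thy1 was higher in Scml2-KO in 146 regions and lower in 111. These counts go by the sign of the interaction and not by the size of the step. Regions upstream of the Polycomb genes Phc1 and Cbx7 were among those with the lowest unadjusted p, and both were picked after the values were seen. They went opposite ways. The Phc1 region had 11.2 and 5.77 in cKit_KO against 5.09 and 3.18 in Thy1_KO. In wild type it had 8.31 and 5.14 in cKit_WT against 14.5 and 7.09 in Thy1_WT. Its interaction was 1.41 ± 0.34 (SE) on the log2 scale. At the Cbx7 region the interaction was −1.24 ± 0.36 (SE). Neither passed the adjusted test.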

How the data were processed

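The authors deposited 1 MACS2 peak list per library, not pooled over replicates, and the submitters' processing notes name Bowtie 1.1.1, MACS2 2.1.0.20140616 and mm10. The settings of the caller and the read depth are unknown here. Per the file headers, each deposited line gave a summit with its pileup, a coverage signal not scaled to library size, a fold enrichment (a ratio), a −log10 p and −log10 q, and the authors' gene and region. The deposited fold equalled the pileup plus 1 over a constant background plus 1.

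Replicate numbers follow the sample titles, and the deposited file names number the replicates of these 4 groups the other way round. Lines of 1 peak were joined, 129 mitochondrial lines of 343580 were left out, and 272086 peaks remained. Overlap was at least 1 bp. Start sites were 23371 positions of 21179 genes, and 557 genes named only in pairs could not be placed. Ties at the equal-length limit were broken at random with 1 fixed seed, and no other seed was run. The deposited peaks tied at the limit numbered 1958 in cKit_KO replicate 1, 1332 in Thy1_KO replicate 1 and 3589 in Thy1_KO replicate 2. Which of them were kept was thus arbitrary, and its effect on the equal-length counts was not tested. Fold enrichment was tested as log2 values with limma 3.58.1 (R 4.3.3), other steps ran in Python 3.11.15, and the scripts were tested on simulated data.

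Members and gene lists were chosen with earlier results of these data known. Named genes were, per direction, the 12 highest by the lower fold of the 2 libraries as deposited, the 8 highest at equal length, up to 8 separated alike in wild type, and every separated list member. Regions away from a TSS were the 6 highest. Wilson intervals at 95% cover counting error only. P-values measure the spread between libraries, which may be technical.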

Additional observations from a re-analysis of the deposited data

Results flagged for a closer look

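Of the named genes, 3 had promoter peaks separated in opposite directions in Scml2-KO and wild type, and the difference was not tested. Caln1, a neuronal calcium sensor gene, had 3.73 and 3.67 in cKit_KO and no peak in Thy1_KO as deposited, while wild type had none in cKit_WT and 4.82 and 3.27 in Thy1_WT. Scmh1, a Polycomb gene related to Scml2, was among the equal-length peaks of both cKit_KO libraries, with 9.59 and 7.34, and of neither Thy1_KO library, with 8.15 and 6.36, whereas in wild type it was among those of neither cKit_WT library, with 8.31 and 5.14, and of both Thy1_WT libraries, with 12.7 and 15.3. Sfmbt2, another Polycomb gene, had 9.59 and 4.20 in cKit_KO against 9.17 and 3.18 in Thy1_KO, and 8.31 and 5.65 in cKit_WT against 14.5 and 9.27 in Thy1_WT. The fold of 6.36 of Scmh1 in Thy1_KO replicate 2 equals the lowest fold kept in that list, so its place outside the equal-length list was decided among tied values. The 3.18 of Sfmbt2 is the lowest fold of the whole Thy1_KO replicate 2 list.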

How the results depend on the processing

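Read depth is unknown, so a missing peak cannot be told from a shallow library. Leaving out 1 library at a time gave 154 to 25595 cKit_KO and 5622 to 47610 Thy1_KO regions as deposited, 996 to 4605 and 2454 to 4073 at equal length, 16 to 451 and 187 to 3121 genes as deposited, and 249 to 550 and 487 to 913 genes at equal length, each more than or equal to the full count by construction, since fewer libraries have to agree. The wild-type difference lay between 8.46 and 30.6 points for the cKit_KO set and between −31.4 and −19.8 points for the Thy1_KO set, an alternative chosen after seeing the data. A −log10 q of at least 5 gave 82 cKit_KO and 1980 Thy1_KO regions as deposited, 329 and 575 at equal length, and 6 cKit_KO genes as deposited. A fold enrichment of at least 5 gave 2117 and, at equal length, 818 Thy1_KO regions, and 4 cKit_KO genes as deposited. For these the cause was not tested. An overlap of 50 bp and a TSS window of 500 bp kept all counts within 1.5 times. Ranking by fold enrichment gave the same equal-length counts. That is no separate check, because with a constant background both rankings follow the pileup.

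Lists of equal length moved the mean Jaccard index to 0.563 within and 0.527 between stages, the share of peaks on X to 2.38% in cKit_KO, and the shares near a TSS and in intergenic sequence to 56.9% and 15.8% in Thy1_KO. The share with the same pattern in wild type became 23.3% for cKit_KO regions, 17.3% for Thy1_KO regions and 14.6% for Thy1_KO genes, and the listed genes separated became 5 for cKit_KO and 8 for Thy1_KO.

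The 0 calls of limma held under median centring, no normalization, a trended prior, a −log10 q of at least 5, equal-length lists, an overlap of 50 bp and without each library, with lowest adjusted p-values from 0.305 to 1.00. The interaction also kept 0 calls under its alternatives, the replicate block included. The replicate numbers are shared by the stages but no label says that they mark a pair, and the replicate differences of the stages correlated at 0.087 over 13972 regions. With a replicate block limma called 0 and 0 regions, with a lowest adjusted p of 0.162. The block with median centring called 192 higher in cKit_KO and 4 in Thy1_KO, and the block with no normalization 9 and 128, both chosen after seeing the data, so the side with more calls turned with the normalization.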

Other observations

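Some genes had several separated regions at equal length, and those named here were picked after the values were seen. All 3 merged regions assigned to Cyp7b1, which encodes an oxysterol hydroxylase, were open in both Thy1_KO libraries and neither cKit_KO library, and all 3 had that pattern in wild type. Lama2, a laminin gene, had 3 such regions of 6, and Tenm4, a teneurin gene, 4 of 19. On the cKit_KO side, both regions of Esrp1, an epithelial splicing regulator gene, were separated, and neither was in wild type. As deposited, Usp24 had 10 Thy1_KO regions of 67, of which 7 had the same pattern in wild type. Over all merged regions, 5.13% were separated towards Thy1_KO and 2.27% towards cKit_KO at equal length. As deposited, 4% were separated towards Thy1_KO. The genes were taken from the top of a ranking of all genes by such counts, and no test was run.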
